A study of Mus musculus with 30 samples.

Results

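Myoblasts are mononucleated muscle precursors that recognise each other, adhere and merge into multinucleated fibres, and 10 genes for surface molecules of adhesion and fusion were followed in cultures of the muscle of the mouse that turns the eyeball (extraocular muscle). They are the cadherins Cdh15 and Cdh2, the immunoglobulin superfamily molecules Ncam1, Vcam1 and Alcam, the laminin receptor subunit Itga7, the metalloprotease Adam12, the tetraspanins Cd9 and Cd81, and the muscle caveolin Cav3. Every probe set was taken whose platform annotation gives one of these symbols and no other. That gave 20 of the 22690 probe sets of the A arrays, which covered all 10 genes, and 4 of the 22575 of the B arrays, which covered Alcam and Ncam1. Of these, 18 and 4 had a mean intensity high enough to be tested. The remaining 2, both of Ncam1, lay below the filter described under processing.

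The groups were total RNA of cultured extraocular muscle at 0, 4, 12, 24 and 48 h, with 3 arrays per time on each Affymetrix array type and 30 arrays in all. The labels give no strain, age, genotype or treatment, and the event at 0 h is not named. Nothing states that replicates came from different cultures, or that an A and a B array of 1 number shared their RNA, so p-values measure only the spread between these arrays, which may be technical. Each comparison set a later time against 0 h or against its predecessor. All comparisons with 0 h share the same 3 arrays at 0 h.

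Cadherins join neighbouring cells by binding copies of themselves in the presence of calcium, and are linked to the actin skeleton by catenins. Immunoglobulin superfamily molecules bind copies of themselves or integrins on the next cell, and tetraspanins organise such partners into membrane domains. Caveolins coat the flask-shaped pits of the plasma membrane called caveolae, and the merging of the apposed membranes is driven by the muscle proteins Mymk and Mymx.

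The deposited arrays had been scaled to a common mean, so every change is relative to the array, and fewer cells of a type cannot be told apart from less RNA per cell. Each array carries 1 intensity per probe set, and levels were not set against each other between probe sets. Over the probe sets called at 24 h, each array was placed between the means at 0 h and 24 h. Replicate 3 at 12 h had covered a share of 0.413 of that distance among the A arrays, where the other 12 h arrays had 0.655 and 0.648. Among the B arrays it had 0.486, and the others 0.703 and 0.692. Calls and changes at 12 h against 0 h are therefore given with and without it. Replicate 2 at 4 h had covered 0.0952 of the distance from 0 h to 24 h among the A arrays, where the other 4 h arrays had 0.213 and 0.220. Among the B arrays it had covered 0.180, against 0.264 and 0.242. Without it limma still called 0 A array members at 4 h. The title of the B array of replicate 1 at 0 h names extraocular muscle, while its source name gives leg muscle. It was kept under its title, and the calls and changes of B array probe sets against 0 h are given with and without it. Of the 9 markers of skeletal muscle fixed for this work, 8 were past the filter on the A arrays, among them Des, Myod1, Myog and Acta1, and only Myf5 was not. Their summed intensity ranged from 44209 to 57500 at 0 h, from 46927 to 62070 at 24 h and from 45799 to 53267 at 48 h.

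The 250 bases before the annotated start of Cav3 and of Alcam are shown because these 2 genes had probe sets that passed the test, in opposite directions, and were in the promoter table. They are RefSeq sequences of build GRCm38.p6, written 5′ to 3′ on the gene's strand, with every E-box (CANNTG, the letters bound by the MyoD family and by many other factors) in capitals. Cav3 lies on the plus strand at chr6:112459255-112459504, and Alcam on the minus strand at chr16:52453082-52453331.
Cav3: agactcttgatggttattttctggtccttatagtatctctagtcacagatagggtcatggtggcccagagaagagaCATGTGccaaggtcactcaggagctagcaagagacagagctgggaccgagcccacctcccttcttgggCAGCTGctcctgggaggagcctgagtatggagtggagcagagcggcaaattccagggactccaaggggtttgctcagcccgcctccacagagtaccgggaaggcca
Alcam: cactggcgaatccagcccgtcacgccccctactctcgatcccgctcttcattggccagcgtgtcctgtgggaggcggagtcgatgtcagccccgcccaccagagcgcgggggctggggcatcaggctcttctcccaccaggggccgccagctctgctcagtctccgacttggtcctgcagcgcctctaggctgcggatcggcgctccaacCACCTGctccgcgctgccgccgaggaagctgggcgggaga
The Cav3 window held 2 E-boxes, CATGTG starting 174 bases and CAGCTG starting 106 bases before the gene's start. The Alcam window held 1, CACCTG starting 40 bases before the start. Its GC content was 69.2%, and that of the Cav3 window 56%. Since CANNTG reads the same on both strands, 1 strand was searched for it, and it occurred in 66.2% of 32851 such windows of all genes, so a match is common. CAGCTG, which is one of the sequences CANNTG covers, occurred in 13% of windows. Searched on both strands, the MEF2 motif (CTA, any 4 bases, TAG) occurred in 3.2% of windows and the MCAT motif CATTCC in 12.6%, and neither was in these 2 windows. The windows of Cdh15, Cd9 and Cd81, the other members in the table, held 3, 3 and 1 E-boxes. CAGCTG was among them in Cd9 (1) and Cd81 (1), and not in Cdh15. A link between these motifs and the changes in intensity was not tested.

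On the A arrays the 18 probe sets moved in both directions. At 24 h, 2 rose (Cav3 and 1 of Ncam1) and 2 fell (both of Alcam), and at 48 h the same Cav3 and Ncam1 probe sets had risen and 1 of Alcam had fallen. The 4 called at 24 h are 22.2% of the 18, beside 5.56% of all 13577 probe sets tested (3.23% higher and 2.33% lower). The 3 called at 48 h are 16.7%, beside 6.7% (4.2% higher and 2.5% lower). A call is a limma p-value under 0.05 after Benjamini-Hochberg adjustment over all probe sets of the array type. At 12 h, 1 probe set (Alcam) fell, 5.56% beside a background of 0.368% (0.118% lower). Without replicate 3 at 12 h the same test called 5 of the 18, of which Cav3 and 2 of Ncam1 rose and 2 of Alcam fell, and 2.03% of all probe sets. That array was set apart on probe sets that include the 4 called at 24 h, so the larger count is no added support. At 4 h limma called 0, beside 0.0295%. There 2 had an unadjusted p under 0.05, a looser threshold than that of this share. The test for any change over the 5 times called 4 probe sets of 3 genes, beside a background of 7.59%, and 6 without replicate 3 at 12 h, beside 9.93%.

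Over all 18 probe sets, 13 changes were positive at 24 h and 13 at 48 h. Their median log2 change was 0.17 at 24 h and 0.15 at 48 h, beside -0.01 and 0.02 over all probe sets tested. Values at 24 h did not overlap those at 0 h in 10 of the 18, beside 24.3% of all probe sets, and those at 48 h in 9, beside 24%. Between neighbouring times (12 h against 4 h, 24 h against 12 h, 48 h against 24 h) limma called 0 of the 18. Of all probe sets it called 0.295%, 0.0884% and 0.626%. At an unadjusted p under 0.05 there were 4, 2 and 1 of the 18, a looser threshold than that of these shares. Without replicate 3 at 12 h, 6 of the 18 and 2150 of all 13577 had such a p at 12 h against 4 h. On the B arrays 2 of the 4 probe sets, both of Alcam, fell at 24 h, beside a background of 0.97% (0.274% lower), and both were called over the 5 times, beside 1.02%. Without the 0 h array of leg muscle source name limma called 0 of the 4 at 24 h, beside 0.348%, and 0 over the 5 times, beside 0.563%. Limma called 0 of the 4 at 4 h, 12 h and 48 h, beside 0%, 0.074% and 0.933% of all probe sets. Without the 0 h array of leg muscle source name, and at 12 h without replicate 3, it also called 0 of the 4 at these times. At an unadjusted p under 0.05 there were 0, 2 and 2 of the 4, a looser threshold than that of these shares. Without replicate 3 at 12 h, 2 of the 4 and 1387 of all 13507 had such a p at 48 h.

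**Figure D1:**
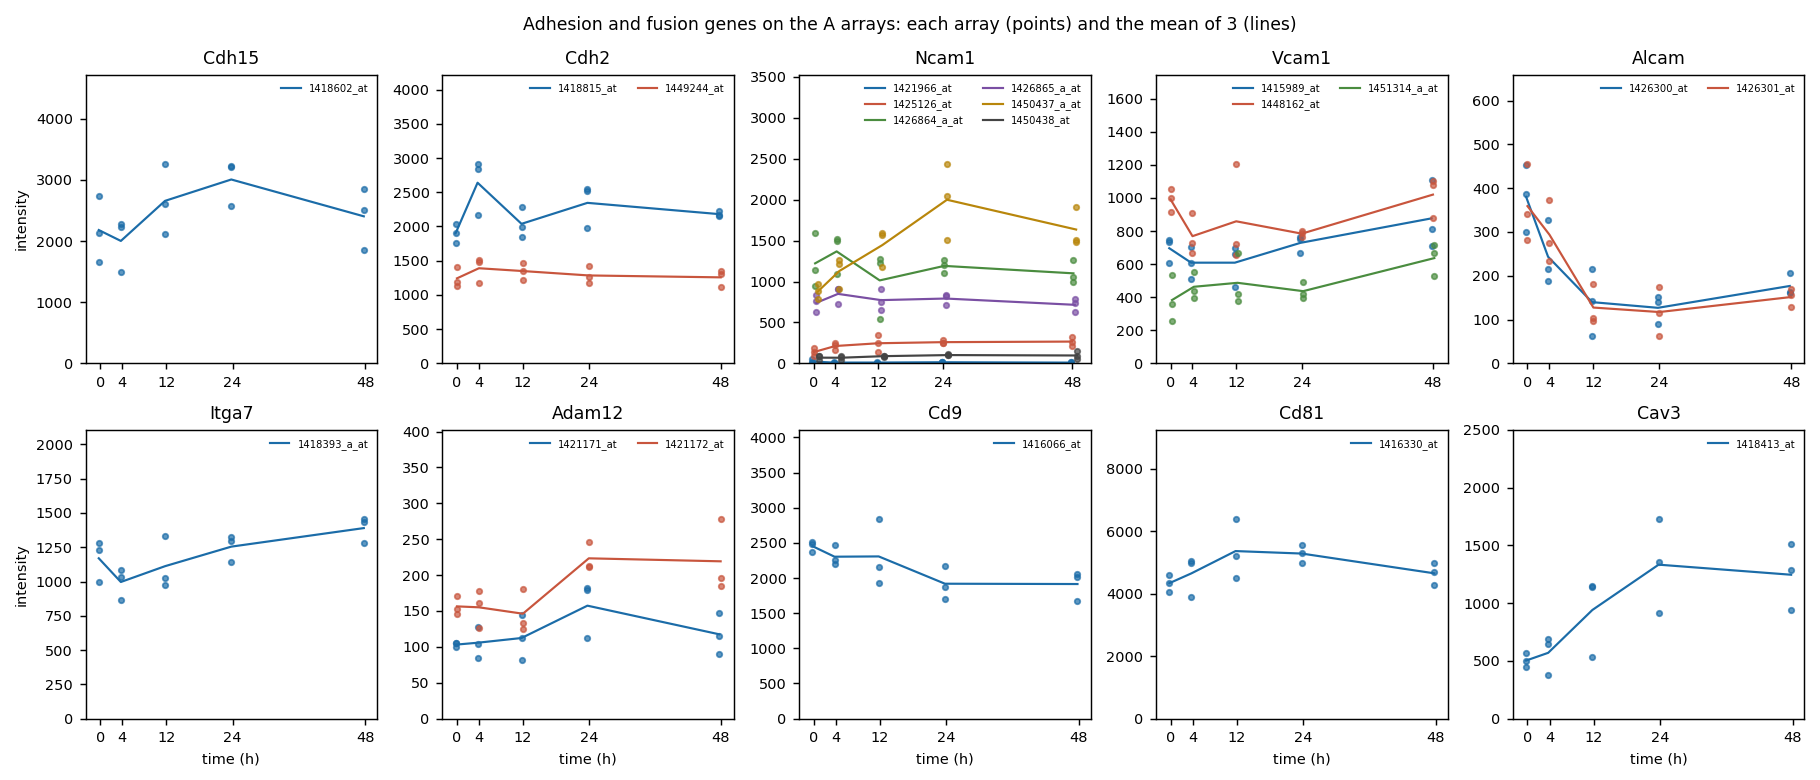
Intensity (vertical axes, linear from 0) against time in h (horizontal axes, to scale) for the 20 A array probe sets of the 10 genes, 1 panel per gene. Points are single arrays, lines join the means of 3 arrays, and probe sets are shifted sideways a little. Alcam is high at 0 h and lower from 12 h on, Cav3 and Ncam1 1450437_a_at are highest at 24 h, and the other probe sets have spreads that overlap at most times.

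Cdh15, or M-cadherin, is the cadherin of satellite cells and myoblasts. Its single probe set measured 2745, 2138 and 1660 at 0 h, 2286, 1498 and 2224 at 4 h, 2604, 3259 and 2112 at 12 h, 2579, 3211 and 3235 at 24 h, and 2861, 2509 and 1846 at 48 h. The arrays at 24 h were high, but the lowest of them lay under the highest at 0 h, so the groups overlapped at every time. The log2 change, on the scale of intensity plus 16 used throughout, was 0.48 ± 0.21 (SE) at 24 h, with a 95% interval of 0.03 to 0.93, and limma gave an adjusted p of 0.218. At 48 h it was 0.15, with an interval of -0.30 to 0.60.

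Cdh2, or N-cadherin, was measured by 2 probe sets. 1418815_at gave 2837, 2170 and 2910 at 4 h, against 2042, 1757 and 1902 at 0 h. All 3 arrays at 4 h lay above all 3 at 0 h. The log2 change at 4 h was 0.46 ± 0.14, with an unadjusted p of 0.0035 and a limma adjusted p of 0.617. Without replicate 2 at 4 h the change was 0.60, with an adjusted p of 0.318. At 12 h it was 0.10, and 0.17 without replicate 3. The means at the later times were 2038 ± 228 at 12 h, 2345 ± 322 at 24 h and 2180 ± 33.4 at 48 h (SD, n = 3). The other probe set, 1449244_at, averaged 1390 ± 183 at 4 h, against 1242 ± 140 at 0 h, and its interval at 4 h, -0.13 to 0.44, overlaps that of the first, 0.17 to 0.75. The difference in course between the 2 probe sets had a limma adjusted p of 0.81.

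Ncam1, the neural cell adhesion molecule of myoblasts, myotubes and motor neurons, is spliced into several forms and had 7 probe sets. The transcript that each detects is not given in the sources used here. 1450437_a_at measured 781, 880 and 972 at 0 h, 1262, 904 and 1218 at 4 h, 1565, 1597 and 1174 at 12 h, 2051, 2434 and 1512 at 24 h, and 1504, 1485 and 1916 at 48 h. Every array from 12 h on lay above every array at 0 h, and those at 24 h were the highest apart from 1 that lay among the others. It rose 2.22-fold at 24 h (log2 change 1.15 ± 0.18, limma adjusted p = 0.00129) and 1.84-fold at 48 h (0.88 ± 0.18, limma adjusted p = 0.0071). At 12 h the change was 0.70 ± 0.18 with a limma adjusted p of 0.107, and without replicate 3 at 12 h it was 0.84 with 0.0341. Both calls, at 24 h and at 48 h, held under every alternative in which the probe set was tested.

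1425126_at measured 137, 184 and 91.8 at 0 h, 246, 281 and 250 at 24 h, and 260, 327 and 211 at 48 h. The later arrays all lay above those at 0 h. Its log2 change was 0.88 ± 0.28 at 24 h and 0.90 ± 0.28 at 48 h, with limma adjusted p-values of 0.0785 and 0.0641, just outside the threshold. Without replicate 3 at 12 h, which enters the estimate of spread, they were 0.0317 and 0.0265, and the 12 h change was 1.06 with 0.0451. The 48 h change also had an adjusted p of 0.0394 without replicate 2 at 0 h and of 0.0403 without replicate 2 at 12 h.

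The other Ncam1 probe sets did not pass the test. 1426864_a_at averaged 1191 ± 79.1 at 24 h, against 1222 ± 332 at 0 h, with a log2 change of -0.01 and an interval of -0.54 to 0.53. 1426865_a_at averaged 792 ± 66.4 at 24 h, against 741 ± 104 at 0 h, with a change of 0.10 and an interval of -0.23 to 0.43. On the B arrays 1439556_at scattered between 678 and 1365 at 24 h, against 788 to 2397 at 0 h, and its change of -0.27 ± 0.47 had an interval of -1.27 to 0.73. Without the 0 h array of leg muscle source name the change was -0.35, with a limma adjusted p of 0.905. 2 further A array probe sets were below the filter, 1421966_at with means of 13.5 ± 2.14 at 24 h and 22.3 ± 21.5 at 0 h, and 1450438_at with 101 ± 6.39 and 69.5 ± 28.2.

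The difference in course between probe sets of the same gene was tested within arrays, a test chosen after their values had been seen. At 24 h the log2 change of 1426864_a_at was lower than that of 1450437_a_at by a difference of -1.16 ± 0.24, and that of 1426865_a_at by -1.05 ± 0.22. Over the 5 times the limma F-tests had adjusted p-values of 0.198 and 0.251 over 7023 such pairs of all genes, and unadjusted ones of 0.00029 and 0.000607. Limma called 0 of all pairs (0%), so the Ncam1 probe sets are not shown to differ in course.

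**Figure D2:**
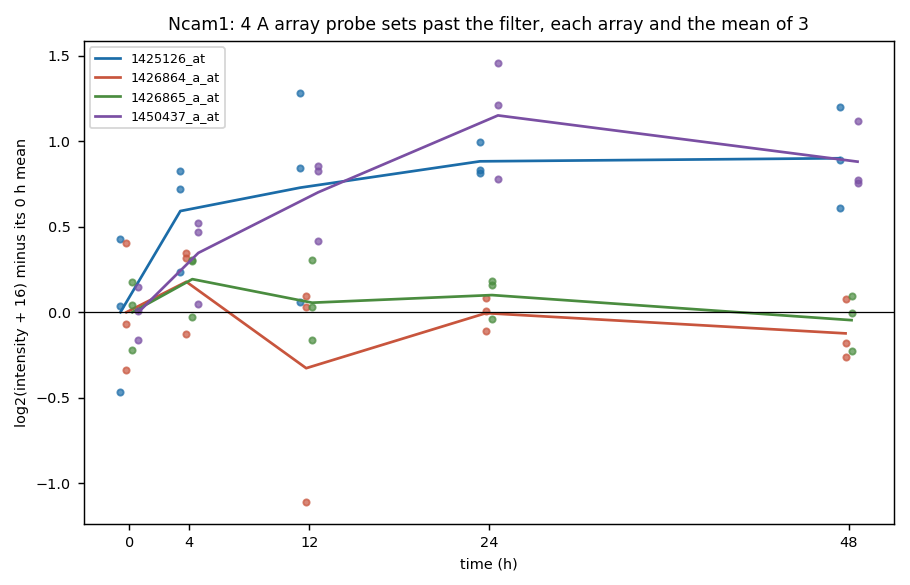
Log2(intensity + 16) less the probe set's own 0 h mean (vertical axis) against time in h for the 4 Ncam1 probe sets past the filter on the A arrays, with points for single arrays and lines for means of 3. 1450437_a_at and 1425126_at lie above 0 at 24 and 48 h on every array, while 1426864_a_at and 1426865_a_at lie on both sides of 0.

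Vcam1, an immunoglobulin superfamily ligand of integrins, had 3 probe sets. 1451314_a_at measured 667, 525 and 716 at 48 h, against 358, 536 and 254 at 0 h. One 0 h array lay among those at 48 h. Its log2 change at 48 h was 0.76 ± 0.24 with a limma adjusted p of 0.0671. Without replicate 2 at 0 h the change was 1.03 with an adjusted p of 0.0161, and without replicate 3 at 12 h the adjusted p was 0.0399. 1415989_at changed by 0.31 ± 0.18 at 48 h with an interval of -0.08 to 0.69, and 1448162_at by 0.04 ± 0.19 with an interval of -0.35 to 0.43. 1448162_at averaged 990 ± 68.2 at 0 h, 769 ± 126 at 4 h and 784 ± 19.4 at 24 h. Its arrays at these times lay below all those at 0 h, with limma adjusted p-values of 0.861 and 0.35.

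Alcam, an immunoglobulin superfamily molecule that binds copies of itself, had 5 probe sets, and 4 of them fell at 24 h, with folds of 0.298 to 0.358. The calls of the 2 on the B arrays depended on single arrays, as given with their values. On the A arrays 1426301_at measured 341, 281 and 455 at 0 h, 234, 372 and 275 at 4 h, 97.2, 104 and 181 at 12 h, 115, 174 and 62.4 at 24 h, and 156, 169 and 129 at 48 h. From 12 h on every array lay below every 0 h array, while those at 4 h overlapped. The fold was 0.339 at 24 h (log2 change -1.56 ± 0.29, limma adjusted p = 0.0043) and 0.452 at 48 h (-1.14 ± 0.29, limma adjusted p = 0.0253). At 12 h the log2 change was -1.41 ± 0.29 with a limma adjusted p of 0.0498, and -1.66 with 0.0135 without replicate 3 at 12 h. The 24 h call held in every alternative in which the probe set was tested. The 48 h call was lost without replicate 1 or 3 at 0 h (adjusted p = 0.0735 and 0.0983), without replicate 1 or 3 at 48 h (0.0663 and 0.0962) and with no filter (0.0536). The 12 h call was lost in most alternatives, with adjusted p-values up to 0.197 without replicate 1 at 12 h.

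1426300_at measured 386, 300 and 454 at 0 h, 216, 326 and 187 at 4 h, 141, 61.8 and 216 at 12 h, 151, 139 and 89.9 at 24 h, and 207, 160 and 163 at 48 h. It was low from 12 h on, again with no overlap with 0 h. It fell at 24 h, with a log2 change of -1.48 ± 0.32 and a limma adjusted p of 0.0102, and this call held in every alternative in which it was tested. At 12 h the change was -1.46 with an adjusted p of 0.0547 (-1.82 with 0.00983 without replicate 3 at 12 h). At 48 h it was -1.03 with an adjusted p of 0.0611. The difference in course between the 2 A array probe sets had a limma adjusted p of 0.912.

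On the B arrays 1437466_at measured 760, 627 and 652 at 0 h, 628, 748 and 350 at 4 h, 330, 324 and 464 at 12 h, 221, 212 and 194 at 24 h, and 434, 271 and 280 at 48 h. 1437467_at measured 882, 952 and 1032 at 0 h, 695, 1083 and 705 at 4 h, 336, 339 and 646 at 12 h, 225, 424 and 212 at 24 h, and 457, 458 and 219 at 48 h. For both, all arrays from 12 h on lay below all arrays at 0 h. The log2 changes at 24 h were -1.63 ± 0.28 and -1.75 ± 0.34, with limma adjusted p-values of 0.0114 and 0.0221. Without the 0 h array of leg muscle source name they were -1.54 and -1.80, with adjusted p-values of 0.0623 and 0.0696, so that neither was then called. The first call was also lost without replicate 2 at 24 h (0.0542). The second was lost without replicate 2 or 3 at 0 h or replicate 1 or 3 at 24 h (adjusted p between 0.0566 and 0.0822). At 48 h the changes were -1.04 and -1.37, with adjusted p-values of 0.112 and 0.074, and the second was called (0.0481) without replicate 3 at 12 h. Without the 0 h array of leg muscle source name they were -0.96 and -1.43, with adjusted p-values of 0.297 and 0.167. The fifth probe set, 1443086_at, measured 225, 274 and 208 at 24 h, against 128, 432 and 318 at 0 h, and its 24 h change of -0.16 ± 0.44 had an interval of -1.09 to 0.78. The lowest of its 0 h values is that of the array of leg muscle source name, and without this array the change was -0.63, with a limma adjusted p of 0.684. With all arrays its difference in course from the other B array probe sets of Alcam had limma adjusted p-values of 0.746 and 0.716.

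**Figure D3:**
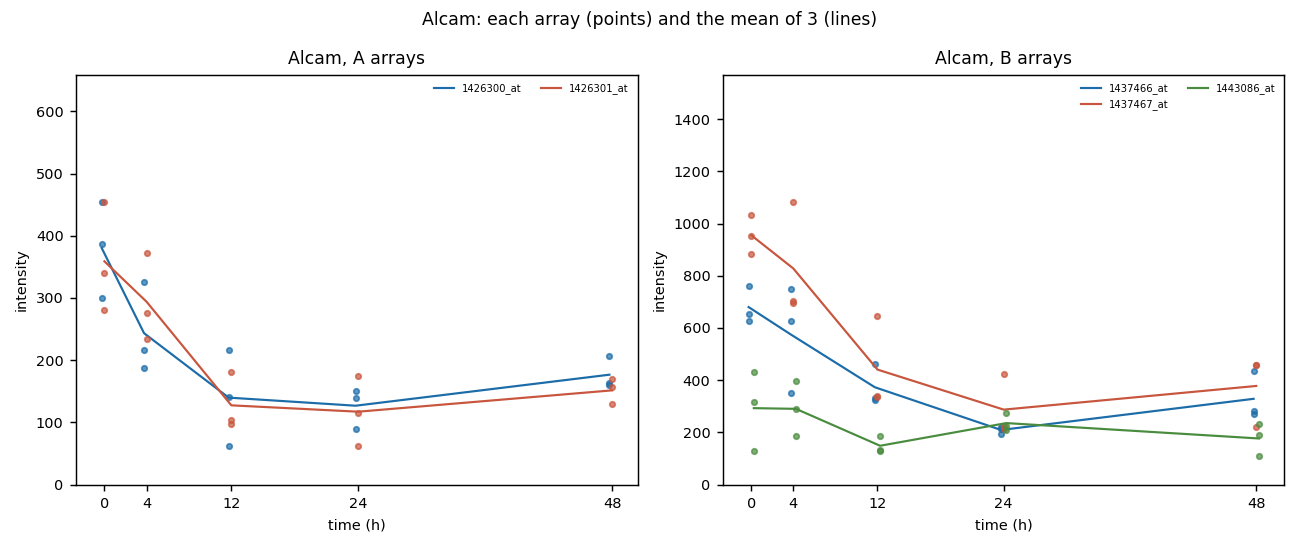
Alcam intensity (vertical axes, linear from 0, scaled apart for the A and B arrays) against time in h, with points for single arrays and lines for means of 3. All probe sets but 1443086_at lie lower at 12, 24 and 48 h than at 0 h on every array.

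Itga7, a subunit of the laminin-binding integrin of muscle fibres, measured 1454, 1435 and 1281 at 48 h, against 1281, 1232 and 996 at 0 h. The groups at 48 h and 0 h did not overlap, though the lowest array at 48 h lay within a unit of the highest at 0 h. The log2 change at 48 h was 0.25 ± 0.14 with an interval of -0.05 to 0.56 and a limma adjusted p of 0.354. At 4 h the mean was 997 ± 115, and the change -0.23 ± 0.14.

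Adam12, or meltrin alpha, is a membrane-bound metalloprotease and disintegrin of fusing myoblasts. Its probe set 1421172_at measured 153, 170 and 146 at 0 h, 213, 211 and 246 at 24 h, and 184, 196 and 278 at 48 h. All arrays at 24 h and 48 h lay above those at 0 h. The log2 change was 0.47 ± 0.20 at 24 h and 0.43 ± 0.20 at 48 h, with limma adjusted p-values of 0.185 and 0.23. For 1421171_at, whose mean lay near the filter, the change was 0.52 ± 0.25 at 24 h and 0.14 ± 0.25 at 48 h, with adjusted p-values of 0.265 and 0.802.

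Cd9 and Cd81 are tetraspanins that are found on myoblasts and on many other cells. Cd9 measured 2481, 2369 and 2511 at 0 h, 1877, 2174 and 1705 at 24 h, and 2008, 2064 and 1671 at 48 h. The later arrays lay below every 0 h array. The log2 change was -0.36 ± 0.14 at both 24 h and 48 h, with limma adjusted p-values of 0.159 and 0.151. Cd81 measured 5320, 5560 and 4986 at 24 h, against 4357, 4608 and 4049 at 0 h, without overlap. Its change of 0.29 ± 0.13 at 24 h had a limma adjusted p of 0.239, and at 48 h it was 0.10 with an interval of -0.18 to 0.38.

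Cav3, the caveolin of muscle fibres, in which inherited mutations cause muscle disease in humans, measured 443, 564 and 500 at 0 h, 646, 376 and 686 at 4 h, 1147, 1141 and 532 at 12 h, 1725, 1359 and 914 at 24 h, and 1511, 1289 and 936 at 48 h. Replicate 3 at 12 h lay among the 0 h arrays, and all arrays at 24 h and 48 h lay above them. Cav3 rose 2.53-fold at 24 h (log2 change 1.34 ± 0.29, limma adjusted p = 0.0119) and 2.40-fold at 48 h (1.26 ± 0.29, limma adjusted p = 0.014). At 12 h the change was 0.81 with a limma adjusted p of 0.238, and 1.17 with 0.0341 without replicate 3 at that time. The 24 h call was lost without replicate 1 at 0 h (adjusted p = 0.0538) or at 24 h (0.0712), and the 48 h call without replicate 1 at 0 h (0.0653) or at 48 h (0.0718). The order of the means was 0, 4, 12, 48 and 24 h, and limma called no difference between neighbouring times.

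**Figure D4:**
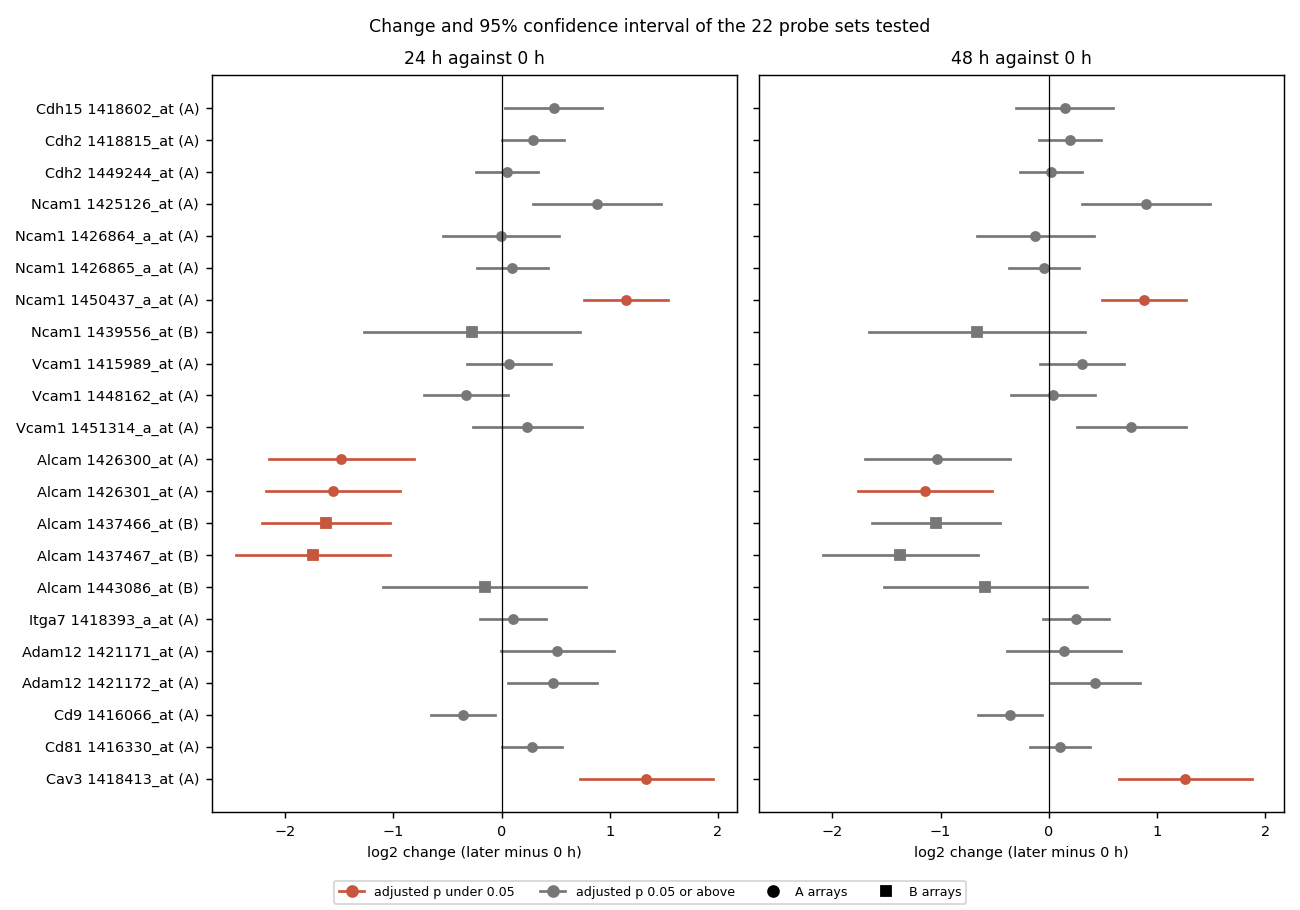
Log2 change against 0 h with its 95% confidence interval from limma (horizontal axes, the later time minus 0 h) for the 22 probe sets tested, at 24 h (left) and 48 h (right). Red marks an adjusted p under 0.05, circles are A array and squares B array probe sets. The red intervals at 24 h are those of Cav3 and Ncam1 1450437_a_at to the right of 0 and of 4 Alcam probe sets to the left, of which the 2 squares were not called without the 0 h array of leg muscle source name.

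Courses were compared with those of 960 other A array probe sets with 1 gene symbol that passed the test for any change over time. The measure was the root mean square distance of the 5 centred time means on the log2 scale, and only other genes were ranked. Genes picked by this distance have similar changes by choice, so the closeness of their values is no separate result. Those most like Cav3 were Col19a1 (0.0178), a collagen gene, Itm2a (0.0492), a membrane protein gene, and Pacsin3 (0.0518), whose product binds and bends membranes. Their log2 changes at 24 h were 1.29, 1.33 and 1.40, beside 1.34 for Cav3. Those most like Alcam 1426301_at were Nfkb2 (0.159), a subunit of NF-kappa-B, Prkcb (0.163), a protein kinase C, and Vegfc (0.193), a growth factor of lymphatic vessels. Their log2 changes at 24 h were -1.37, -1.53 and -1.44, beside -1.56 for the Alcam probe set.

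A further 109 genes of adhesion and fusion were listed by role. Of these 89 were tested (85 of them on A and 4 on B arrays), 18 were below the filter and 2 had no probe set. At 24 h 11 rose and 3 fell, 15.7% of those tested, and at 48 h 8 rose and 3 fell, 12.4%. The A array backgrounds are 5.56% and 6.7% of all probe sets past the filter, while each list gene was read on its probe set of highest mean. With the filter at the 60th percentile, 656 of 9051 A array probe sets were called at 24 h and 764 at 48 h. The lists were chosen with earlier results of these data known. The median log2 change of the 89 was 0.07 at 24 h and 0.06 at 48 h, close to the medians of all probe sets. At 4 h and 12 h limma called 0 of the 89, with 2 and 19 at an unadjusted p under 0.05. With replicate 2 at 4 h left out, 1797 of all 13577 A array probe sets had such a p at 12 h. Without replicate 3 at 12 h limma called 1 of the list genes on the A arrays at 12 h, Itgb1bp2 (log2 change 1.57, adjusted p = 0.0129). The 24 h count depended on single arrays: on the A arrays it was 3 without replicate 2 at 24 h, 4 without replicate 1 at 0 h or at 24 h, and 9 without replicate 2 or 3 at 0 h or replicate 3 at 24 h. The 48 h count was 6 without replicate 1 at 0 h or at 48 h and 7 without replicate 3 at 48 h. Single calls were followed for the leading or called list genes, Mymk, Mymx and the genes of like course. Of their 160 changes against 0 h, 39 were past the threshold, and only 14 of these in every alternative. None of the 39 changed sign.

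Of the 11 genes for fusogens and membrane remodelling, 1 rose at each of 24 h and 48 h. This was Flot1, a scaffold protein of membrane rafts, which averaged 356 ± 47.2 at 0 h, 574 ± 51.1 at 24 h and 563 ± 67.9 at 48 h (log2 change 0.67 and 0.64, limma adjusted p = 0.0105 and 0.0117). The fusogens Mymk and Mymx, singled out for their role, did not pass. Mymk averaged 6522 ± 1702 at 24 h, against 4320 ± 1160 at 0 h (limma adjusted p = 0.241). Mymx, on the B arrays, averaged 11461 ± 2675 at 24 h, against 6593 ± 2795 at 0 h (log2 change 0.85, limma adjusted p = 0.403), and without the 0 h array of leg muscle source name the change was 0.70 (0.621). Bin1, which curves membranes of the T-tubules, changed by 0.42 at 24 h (limma adjusted p = 0.15) and Ehd1, a protein of membrane recycling, by 0.39 (0.226).

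Of the 10 tested cadherin partners and other cadherins, 1 rose and 2 fell at 24 h, and 1 rose and 2 fell at 48 h. Cdh11, a cadherin of mesenchymal cells, averaged 681 ± 197 at 0 h, 1331 ± 69.8 at 24 h and 1810 ± 727 at 48 h (log2 change 0.99 and 1.35, limma adjusted p = 0.0212 and 0.0018). Pcdh7, a protocadherin, fell with changes of -0.95 and -0.88 (limma adjusted p = 0.0348 and 0.0436). Neo1, a receptor that works with Cdon in myoblasts, fell at 24 h (-0.86) and Ctnnb1, or beta-catenin, which links cadherins to the cytoskeleton, fell at 48 h (-0.40), and both were named after their values were seen. Cdh13 changed by 0.39 at 24 h and -0.41 at 48 h, with limma adjusted p-values of 0.146 and 0.12, and passed the test over the 5 times (0.0164).

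Of the 10 tested genes for immunoglobulin superfamily adhesion molecules, 2 rose at 24 h and 3 at 48 h and none was called lower. Mcam, an adhesion molecule of vessel walls and developing muscle, averaged 180 ± 46.3 at 0 h, 501 ± 37.1 at 24 h and 494 ± 205 at 48 h (log2 change 1.42 and 1.33, limma adjusted p = 0.0121 and 0.0149). Jam2, a junctional molecule that takes part in myoblast fusion in zebrafish, rose by 0.89 and 0.94, and Nectin2, a partner of the cadherin junction, by 0.63 at 48 h.

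Of the 14 tested integrins and linkers, 4 rose at 24 h and 1 at 48 h. Itgb5, an integrin beta subunit, averaged 1557 ± 361 at 24 h, against 983 ± 144 at 0 h (log2 change 0.64, limma adjusted p = 0.0389). The others, named after their values were seen, were Itgb1bp2, or melusin, a muscle protein that binds integrin (1.25 at 24 h and 1.15 at 48 h), Vcl (0.54 at 24 h) and Tln1 (0.50 at 24 h), the last 2 encoding vinculin and talin, which tie integrins to actin. The linkers Ilk and Fermt2 changed by 0.37 and 0.38 at 24 h, with limma adjusted p-values of 0.065 and 0.0754.

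Of the 6 genes of caveolae, 2 rose at both 24 h and 48 h, and all 6 changes were positive at both times. Cav1, the caveolin of most cell types other than muscle fibres, averaged 1194 ± 283 at 0 h, 2644 ± 13.0 at 24 h and 3409 ± 146 at 48 h (log2 change 1.16 and 1.53, limma adjusted p = 0.000466 and 1.68e-05). Cavin2, a coat protein of caveolae, rose by 0.58 and 0.54, and Cav2 changed by 0.51 and 0.69 with limma adjusted p-values of 0.295 and 0.138. Of the 5 tested ADAM proteases, 1 rose at 24 h, Adam19, or meltrin beta (log2 change 0.59, limma adjusted p = 0.0393). At 48 h limma called 0 of them, with 3 at an unadjusted p under 0.05. With replicate 2 at 12 h left out, 2790 of all 13577 A array probe sets had such a p at 48 h. Adam10 and Adam17, which shed surface proteins, changed by -0.21 and -0.31 at 24 h (limma adjusted p = 0.442 and 0.109).

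Limma called 0 of the 7 tested tetraspanins and partners and 0 of the 17 actin and Rac genes at 24 h and 48 h. At an unadjusted p under 0.05 there were 0 and 0 among the tetraspanins, and 5 and 1 among the actin and Rac genes. With the filter at the 60th percentile, 2056 of 9051 A array probe sets had such a p at 24 h. Of the 9 tested genes for recruitment and phosphatidylserine receptors, 1 fell at both times. This was Cxcr4, the receptor through which Cxcl12 attracts cells, which averaged 807 ± 134 at 0 h, 299.9 ± 85.3 at 24 h and 202 ± 77.0 at 48 h (log2 change -1.40 and -1.98, limma adjusted p = 0.00241 and 6.82e-05).

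**Figure D5:**
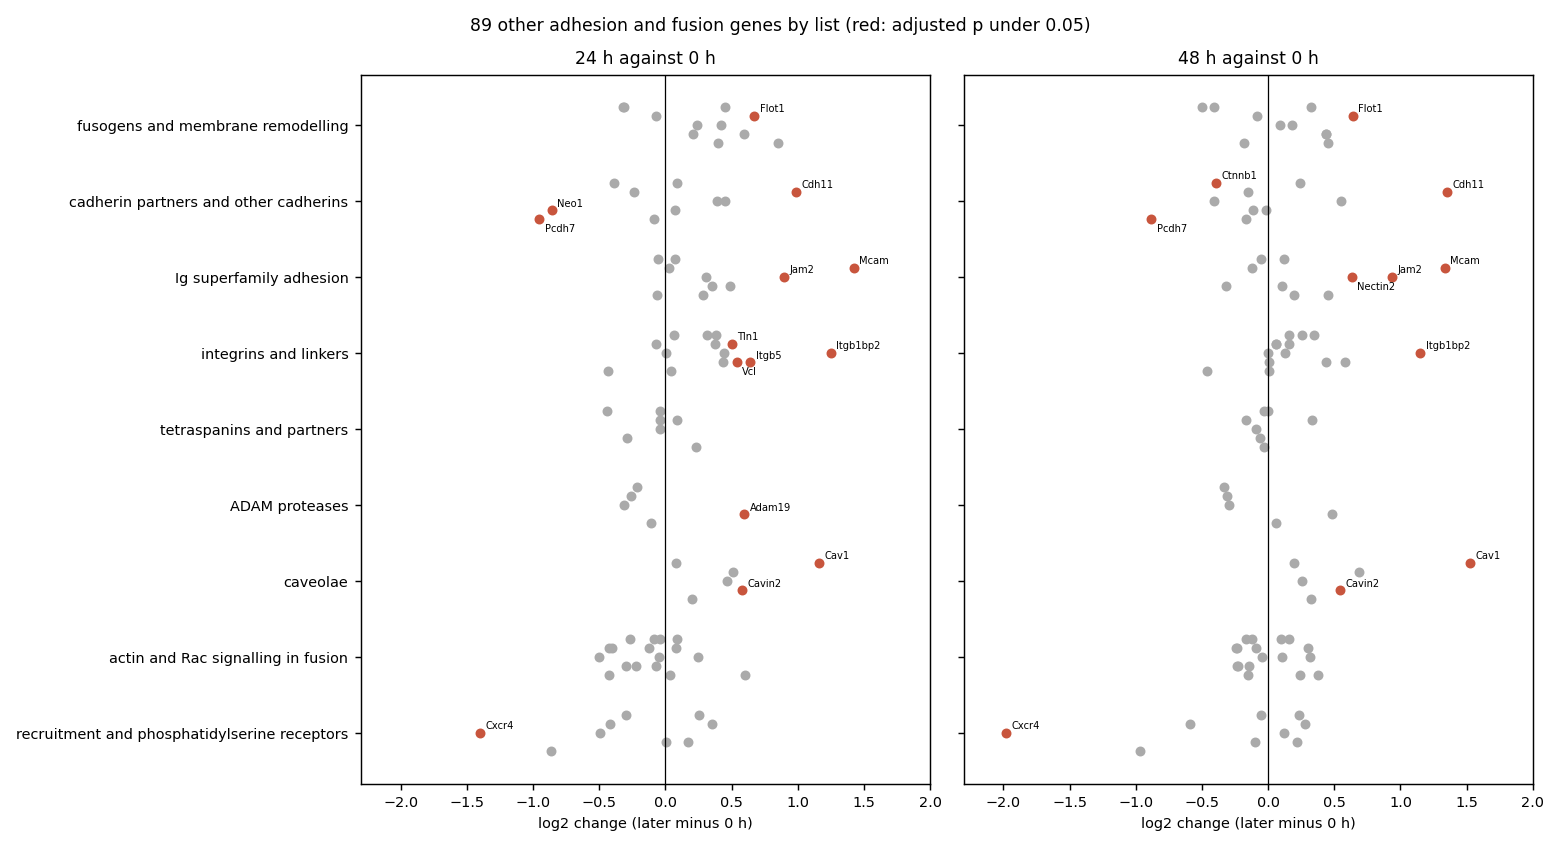
Log2 change at 24 h (left) and 48 h (right) against 0 h (horizontal axes) of the 89 tested genes, 1 point per gene, arranged by list and spread vertically within a list so that points do not cover each other. Red points, named, have a limma adjusted p under 0.05. They number 14 at 24 h and 11 at 48 h.

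Markers of other cell types were read on the A arrays beside these changes. Of 6 markers of smooth muscle and pericytes, 5 were past the filter, and 2 of them rose at 24 h and 48 h. Tagln averaged 3045 ± 306 at 24 h, against 1113 ± 608 at 0 h, and Pdgfrb 1111 ± 137, against 414 ± 103. Acta2 (log2 change 0.03 at 24 h and -0.16 at 48 h), Cspg4 (0.18 and 0.40) and Rgs5 (-0.35 and -0.20) were not called. The list's summed intensity ranged from 12019 to 18281 at 0 h, 17624 to 18995 at 24 h and 14738 to 17467 at 48 h. Most of it came from Acta2, which averaged 13259 over all arrays, while Myh11, the defining myosin of smooth muscle, averaged 13.6. The part of smooth muscle and pericytes in the rise of Mcam, Cav1, Cdh11 and the members was not tested. Of 6 fibroblast markers, 1 was past the filter, and the summed intensity was 290 to 493 at 0 h, 398 to 640 at 24 h and 399 to 695 at 48 h. Col1a1, below the filter and so not tested, averaged 34.6 ± 2.99 at 0 h, 157 ± 53.9 at 24 h and 170 ± 98.1 at 48 h. Pdgfra, Dcn and Thy1, also untested, averaged less at both later times than at 0 h. Of 6 endothelial markers, 1 was past the filter, with sums of 266 to 415 at 0 h, 259 to 335 at 24 h and 292 to 377 at 48 h, and Pecam1, Cdh5 and Vwf averaged 36.6, 41.1 and 2.47. Of 6 leukocyte markers, 2 were past the filter, with sums of 418 to 707 at 0 h, 372 to 458 at 24 h and 356 to 565 at 48 h, and Ptprc averaged 21.5. Limma called no tested marker of these 3 lists at 24 h or 48 h. It also called none of the satellite cell (3 of 4 past the filter), Schwann cell (2 of 4) and adipocyte (0 of 3) markers measured. Of the skeletal muscle markers, Actn2, a protein of the sarcomere's Z-disc, averaged 927 ± 262 at 0 h, 3619 ± 1150 at 24 h and 3308 ± 421 at 48 h (limma adjusted p = 0.000258 and 0.00016). Myh3, the embryonic myosin heavy chain, averaged 4996 ± 59.0 at 0 h, 8675 ± 1780 at 24 h and 7188 ± 184 at 48 h, and rose at 24 h (log2 change 0.77, limma adjusted p = 0.0179) but did not pass at 48 h (0.0998). Myod1 fell at 48 h to 4413 ± 647, against 7444 ± 1899 at 0 h (limma adjusted p = 0.0232).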

How the data were processed

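Total RNA of cultured mouse extraocular muscle was measured on 15 A and 15 B Affymetrix arrays, by the standard protocol of the maker, per the labels. The deposited values are intensities on a linear scale that the authors had scaled array by array: with 2% of values trimmed from each end, columns averaged 500.2 (A) and 500.1 (B). How background was corrected and probes were summarised is not given in the sources used here. Probe sets were named from the platform annotation (20393 with 1 symbol, 691 with several and 1606 with none for A; 14674, 245 and 7656 for B). Promoters came from RefSeq tables, and 5 of the 10 members matched.

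The log2 of intensity plus 16 was fitted with 1 mean per time, separately for each type, in limma 3.58.1 (R 4.3.3, eBayes with an intensity trend). Control probe sets (64 per type) and those with a mean below the 40th percentile (101 on A, 199.6 on B) were left out, leaving 13577 and 13507. The pseudocount understates changes of dim probe sets, and the filter leaves the dimmest untested. Benjamini-Hochberg adjustment ran over all probe sets of a comparison, and 0.05 was the threshold. There were 10 residual degrees of freedom, and the median SE of a 48 h change was 0.179 on A and 0.266 on B. The number of arrays limits the precision. The model was tested on simulated data. For the lists, the probe set with the highest mean stood for a gene, and up to 3 genes per list with the largest F statistic were named. The members, lists and markers were chosen with earlier results of these data known. The alternatives were quantile normalization, median scaling, pseudocounts of 1 and 64, no filter and one at the 60th percentile, no trend, the replicate block, a fit of only the 2 groups compared, and leaving out arrays singly. The labels do not say whether replicate numbers pair the arrays, and the main fit left them unpaired. The correlations of same-numbered arrays, given at the end, cannot exclude a pairing. Figures were drawn with matplotlib 3.10.9.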

Additional observations from a re-analysis of the deposited data

How the results depend on the processing

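Of 88 changes of member probe sets against 0 h, 10 were past the threshold, 4 of these in every alternative (Ncam1 1450437_a_at at 24 h and 48 h, Alcam 1426300_at and 1426301_at at 24 h, wherever tested), and none of the 10 changed sign. Of the other 78, 9 passed in at least 1 alternative. On the A arrays the count of members called at 12 h (1) was 0 under quantile normalization, median scaling, pseudocount 1, no filter, the filter at the 60th percentile, no trend, the replicate block and only the times compared, and 2 with pseudocount 64. Under the filter at the 60th percentile, with 13 members tested, 2 were called over the 5 times and 2 at 24 h. On the B arrays the count over the 5 times (2) was 0 with no filter, no trend and the replicate block, and that at 24 h (2) was 1 with no trend. Leaving out each array gave, on the A arrays, 3 to 6 over the 5 times, 0 to 5 at 12 h, 3 to 5 at 24 h, 1 to 6 at 48 h and 0 to 1 at 12 h against 4 h, and on the B arrays 0 to 2 over the 5 times, 0 to 2 at 24 h and 0 to 1 at 48 h. On the A arrays the highest counts at 12, 24 and 48 h came without replicate 3 at 12 h, and leaving out replicate 1 at 0 h gave or shared the lowest at these times. Without replicate 3 at 12 h, 276 in place of 50 of all A array probe sets were called at 12 h.

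The list counts' alternatives were chosen after seeing the data. At 12 h (0) they gave 1 with pseudocount 64 and with the filter at the 60th percentile, and 0 to 1 leaving out each array. At 24 h (14) they gave 9 with no filter and 3 to 15 leaving out each array, and at 48 h (11) 6 to 13. Pairs of Ncam1 probe sets were tested only under quantile normalization, pseudocounts of 1 and 64, the replicate block and leaving out each array. None was called in any of these (0 to 0). Same-numbered arrays deviated together with correlations of -0.364 to 0.421 on the A and -0.101 to 0.114 on the B arrays, and 6 and 5 of 15 arrays correlated best with their own number, so the replicate block is given only here. It also called Ncam1 1425126_at at 48 h (adjusted p = 0.0477). The causes of these shifts were not tested. The larger SE of the B arrays limits what they can show.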
